A study of Macaca mulatta with 6 samples.

Results

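The results concern a recurring arrangement of CpG sites in the rhesus macaque genome: 6 consecutive CpGs whose spacings are 24, 20, 4, 8 and 4 bases, or the same spacings read backwards. A CpG is a cytosine followed by a guanine, and its spacing is the number of bases to the next listed CpG. The members were all such sets on the 20 autosomes with exactly these spacings, found from the chromosome, start and end of each CpG that the deposited bisulfite sequencing table lists. There were 16059 of them among 25805643 sets of 6 consecutive listed CpGs. Each spans 61 bases, no CpG belongs to more than 1 member, and together they hold 96354 CpGs, or 0.373% of the 25805743 listed on the autosomes.

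The study took DNA from peripheral blood mononuclear cells (the lymphocytes and monocytes of blood) of 6 adult female rhesus macaques (Macaca mulatta). The animals were 3 of low social rank, given as rank 5 in the labels, and 3 of high social rank, given as rank 1. The labels give no treatment, strain or exact age, nor the make-up of the mononuclear fraction. The 12 columns of values in the table carry no names, so none could be tied to an animal or a rank. No methylation level, sequencing depth or comparison of ranks is therefore given here, and the smallest unit described is a CpG position, which belongs to no single animal.

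In vertebrates most CpGs outside CpG islands carry a methyl group on the cytosine. A methylated cytosine can deaminate to thymine, so CpGs are lost over evolutionary time and are rare in most of the genome. Among the places where they stay frequent are interspersed repeats, copies of a transposable element scattered through the genome. In primates the most abundant of these is the Alu family, short CpG-rich elements built of a pair of related arms joined by an A-rich linker, whose CpGs are mostly methylated in blood cells. Each copy starts with the CpGs of its source element and loses them independently afterwards. Whether the members lie in Alu or other repeats was not tested, because no genome in the coordinates of the table was used, and for the same reason no sequence is printed.

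The 6 CpGs are numbered by their place in the pattern, from place 1, at the outer end of the spacing of 24 bases, to place 6. They lie 0, 24, 44, 48, 56 and 60 bases from place 1. In 8066 members place 1 has the lowest coordinate, called the listed order. In the other 7993 the pattern runs backwards and was flipped. The listed order made up 50.2% of the members and ranged from 47.5% to 55.2% over the autosomes, exceeding the backward one on 10 of 20. Other orders of the same spacings were rare. The same 5 spacings can be arranged in 29 other orders, each counted together with its reverse, and all of these together gave 111 sets. The most frequent of them, 4-8-24-20-4, gave 45, and 13 gave none.

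Listed CpGs also stood at fixed distances outside the 6 that define the pattern, which the search did not use. At 6 distances before place 1, between 55.2% and 82.9% of the members had a listed CpG. These distances were 8, 15, 39, 62, 70 and 78 bases, and each is called a step. A base drawn from anywhere on the autosomes is a listed CpG with a frequency of 0.952%, and the median over the 72 other distances in the same stretch was 0.358%. After place 6 a further 10 steps were found, as far as 195 bases from place 1. With the 6 places the series comes to 22 CpGs over 274 bases.

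**Figure D1:**
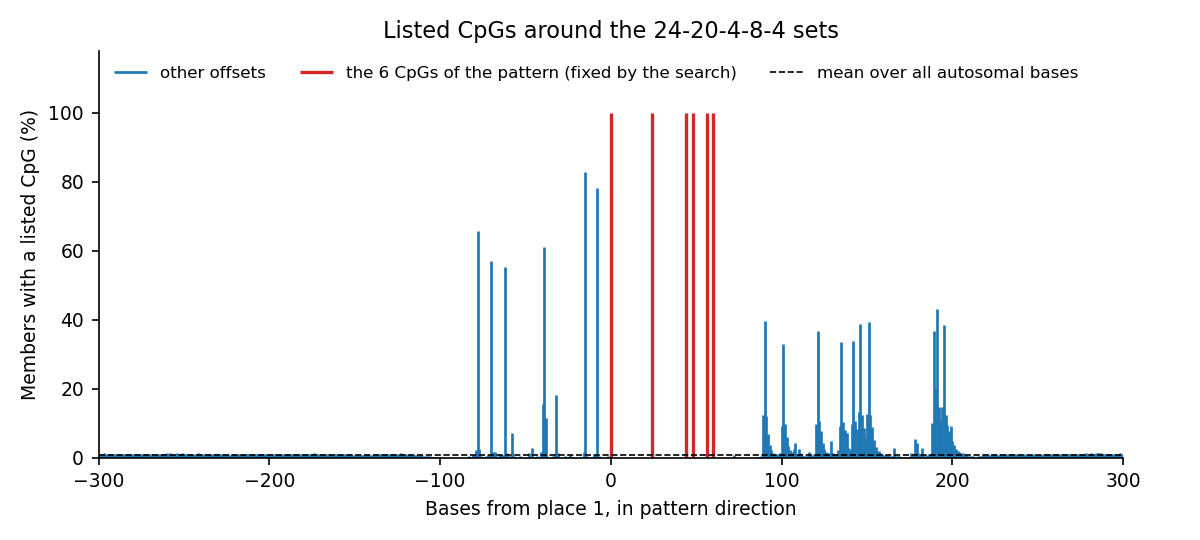
Share of the 16059 members with a listed CpG (%) at each distance from place 1, in bases and in pattern direction. Red lines are the 6 CpGs used by the search, and the dashed line is the mean over all autosomal bases, 0.952%. The steps before place 1 are narrow apart from the one at 39 bases, while those after place 6 are spread over several neighbouring bases.

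The steps nearest to place 1 were the most often listed. The CpG 15 bases before place 1 was listed in 13314 members, 82.9 ± 1.67% (SD over 20 autosomes). The CpG 8 bases before it was listed in 12538, 78.1 ± 1.45%. Those farther out were listed less often, at 61.1 ± 1.68% for 39 bases, 55.2 ± 1.93% for 62 bases, 56.9 ± 1.72% for 70 bases and 65.7 ± 1.73% for 78 bases (each SD over 20 autosomes). The order by share does not follow distance throughout, since the outermost step exceeded the 3 between it and the nearer pair. The 62 and 70 base steps differ by about the spread between autosomes, and the other neighbours in this order differ by more.

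At the step 39 bases before place 1 the neighbouring bases were also used. A CpG occupies 2 bases, so CpGs cannot be listed 1 base apart. The step itself was listed in 9815 members. In 1227 members, 7.64%, there were CpGs 1 base to either side of it instead, 38 and 40 bases before place 1. A further 1298 members had only the one at 40 bases, 615 only the one at 38 bases, and 3104 had none of these. A weaker position lay 32 bases before place 1, listed in 2914 members or 18.1%.

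After place 6 the first step varied in distance and the later ones moved with it. The first listed CpG between 80 and 100 bases from place 1 was taken as the first step, and 13531 members, 84.3 ± 1.37% (SD over 20 autosomes), had one. It lay 30 bases from place 6 in 6343 of them, 29 bases in 2006, 31 bases in 1941, 32 bases in 1108 and 33 bases in 557. Distances of 29 to 32 bases covered 84.2%. Longer ones were more frequent than shorter ones, with 1943 members above 32 bases and 190 below 29. Of the 1943, 266 lay 100 bases from place 1, 1 base short of the next step at 101 bases. Distances of 95 and 96 bases from place 1 had 240 and 173. Whether the next step was taken for the first in some of the 266 was not tested.

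In the groups from 30 to 36 bases, most members had each of the 9 later steps at a fixed distance from the first step. In the members whose first step lay at 30 bases, between 69.9% and 80.4% had each later step at its place. In those with the first step at 34 bases, between 68.1% and 77.7% had each later step 4 bases farther out, and the median share at the places used by the first group was 0.282%. With the first step at 32 bases these shares were 70.4% to 82.8%, and the median at the unmoved places was 0.451%. With the first step at 29 bases the shares were lower, at 48.6% to 62.1% 1 base nearer to the pattern, and in the 92 members with it at 28 bases they were 46.7% to 62.0% 2 bases nearer. Most of the steps before place 1 were narrow. At those of 8, 15, 62, 70 and 78 bases, a position 1 base to either side was listed in 0.461% to 2.45% of the members. At 39 bases these shares were 11.5% and 15.7%.

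**Figure D2:**
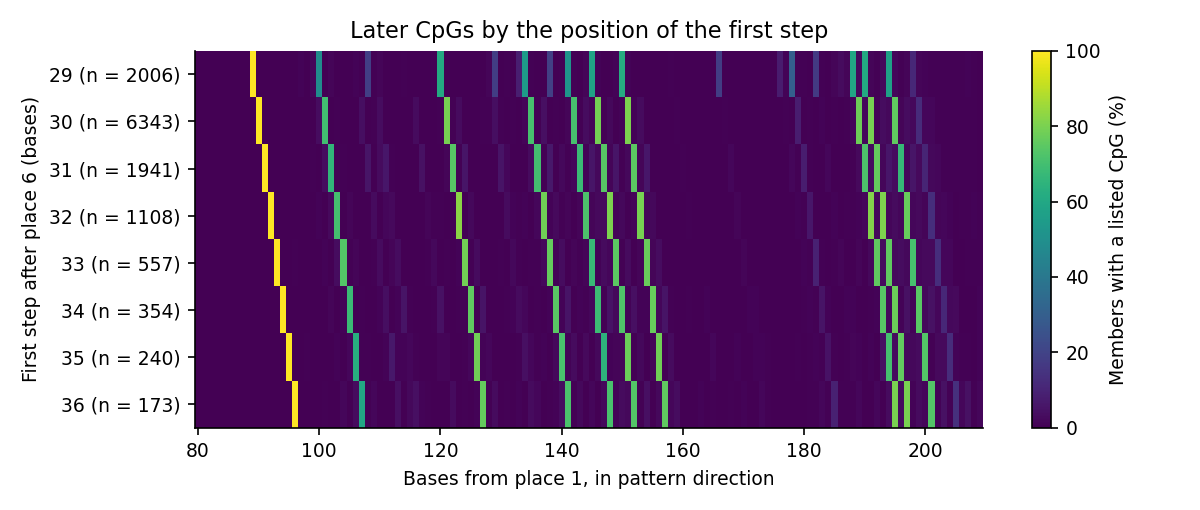
Share of members with a listed CpG (colour, %) at each distance from place 1 in bases, with members grouped in rows by the distance of the first step from place 6 (29 to 36 bases, n beside each row). The leftmost diagonal is the first step, which defines the rows, and the later diagonals run parallel to it. The row of 29 bases, with 2006 members, has weaker diagonals and additional positions between them.

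Corrected for the position of the first step, the 9 later steps were listed in similar shares. The lowest was the step at 101 bases from place 1, in 64.1 ± 1.93% of the 13531 members with a first step (SD over 20 autosomes). The highest was the step at 151 bases, at 74.3 ± 1.80%. The steps at 121, 146, 189 and 191 bases lay between 72.2% and 73.9%, and those at 135, 142 and 195 bases at 68.4%, 65.5% and 69.3%. Neighbours within 72.2% to 74.3% differ by about the spread between autosomes or less. Without the correction, and as a share of all 16059 members, none of the 9 exceeded 43.3%.

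Members in the listed order and members read backwards gave the same series. They are different places in the genome, and their shares differed by at most 1.54 percentage points over all 16 steps. The step 15 bases before place 1, for example, was listed in 82.7% of the members in the listed order and 83.1% of those read backwards.

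**Figure D3:**
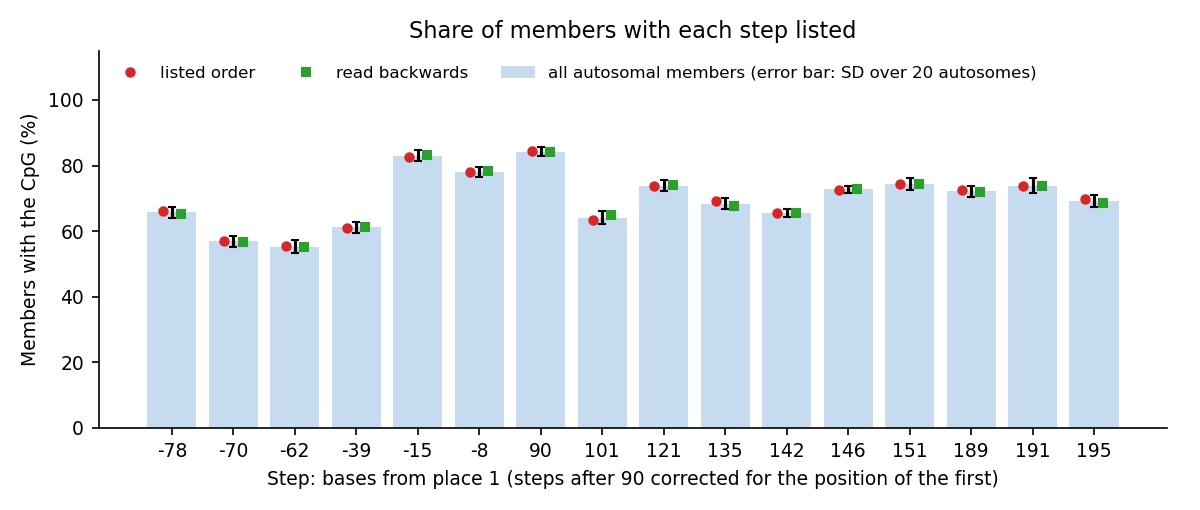
Share of members (%) with each of the 16 steps listed, by distance from place 1 in bases. Bars are all autosomal members with the SD over 20 autosomes, and points are members in the listed order and read backwards, which differ by at most 1.54 percentage points. The steps after 90 are corrected for the position of the first step and are shares of the 13531 members that have one.

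Single members show the series directly. Those given here were chosen after their values were seen, as the lowest position on chromosome 1 of their kind, in the table's own coordinates, for which no source used here names a build. The member at chr1:2114379-2114439, in the listed order, had all 16 steps with the first at 30 bases. Its steps after place 6 were at 90, 101, 121, 135, 142, 146, 151, 189, 191 and 195 bases from place 1. The member at chr1:23679779-23679839 had the same steps read backwards. In the member at chr1:34355624-34355684 the first step was at 34 bases, and the steps after place 6 were at 94, 105, 125, 139, 146, 150, 155, 193, 195 and 199 bases from place 1. The opposite case, at chr1:3332049-3332109, had the 6 places but neither a step before place 1 nor a first step, as did 70 members or 0.436% in all.

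Most members held most but not all of the steps. Of the 6 steps before place 1 the mean was 4.0 ± 1.41 (SD over members). All 6 were listed in 2057 members, 12.8%, and none in 340, 2.12%. Of the 9 later steps after the first the mean was 6.34 ± 2.71 (SD over the 13531 members with a first step). All 15 were listed in 458 of those members, 3.38%, and the median was 11 of 15. The later steps were either mostly present or mostly missing. There were 2607, 3583 and 2544 members with 7, 8 and 9 of them, against 201 with 3 and 925 with none.

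Most of the members with few later steps held the series at another distance. At most 2 of the 9 were listed in 2054 members with a first step. Of these, 1333 or 64.9% had at least 5 of the 9 when the whole series was moved by another number of bases, the best of all moves from 15 bases nearer to 20 bases farther. Of the 2528 members without a first step, 1868 or 73.9% did. By that count 14109 members, 87.9%, had at least 5 of the 9, and 853, 5.31%, had at most 2 at every move. The best move was chosen on the same steps it counts. The numbers with at least 5 may therefore be too high and the 853 too low. A series moved farther than the moves tried was not counted as a match, which acts the other way. Neither number is thus a limit.

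With the later steps counted at the distance set by the first step, the 2 sides of the pattern were filled together only weakly. Over the 13531 members with a first step, the number of steps before place 1 and the number after it had Pearson's r = 0.15 and Spearman's rho = 0.15, a correlation across sites of one genome that share their chromosome and region. Members with all 6 steps before place 1 had a mean of 7.17 of 9 after it, and members with none had 5.93. The rise was not steady, since members with 1 or 2 steps before place 1 had 5.53 and 5.73. Of the 2054 members with at most 2 of the 9 at that distance, 1333 had at least 5 at another move. The correlation and these means were not recounted at such moves, so the relation there was not tested. Each step before place 1 was listed more often in members that had the next one out. The CpG at 70 bases before place 1 was listed in 64.9% of the members with the CpG at 78 bases and in 41.6% of those without it. That at 62 bases was listed in 65.1% of the members with the CpG at 70 bases and in 42.2% of those without it. The CpG at 15 bases was listed in 86.4% of the members with the one at 39 bases and in 77.4% of those without it. For the CpG at 8 bases the shares were 80.2% with the one at 15 bases and 67.6% without it. The difference was smallest between the steps at 62 and 39 bases. The CpG at 39 bases was listed in 63.2% of members with the one at 62 bases, against 58.6% of those without it.

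Sets with 5 of the 6 CpGs were more frequent than complete ones. Exactly 1 place was unlisted in 26591 sets, so members made up 37.7% of the sets with at least 5 places. Where 1 of places 2 to 5 was unlisted, no other CpG could stand between the 5 listed ones. Where place 1 or 6 was unlisted, a CpG could stand next to it. The sets without place 1 thus include 599 and 72 with a first spacing of 23 or 25 bases. Those without place 6 include 116 and 81 with a last spacing of 3 or 5 bases. No source used here says whether an unlisted CpG is absent from the genome or only from the table. The places differed in how often they were the unlisted one. Place 2 was unlisted in 6366 sets, 0.396 ± 0.0283 per member (SD over 20 autosomes), and place 1 in 5668, 0.353 ± 0.0289 per member. Place 4 followed with 4845 and place 6 with 3694. Places 5 and 3 were unlisted least often, in 2816 and 3202 sets, 0.175 ± 0.0186 and 0.199 ± 0.0167 per member. The range was 2.26-fold. Places 6 and 4 differ by more than 2 times the larger SD over autosomes, and the other neighbours in this order by less.

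These incomplete sets also had CpGs at the steps before place 1, but fewer of them on average. The steps after place 6 were not counted for these sets. Where place 4 was unlisted, 3.80 of the 6 steps before place 1 were listed on average, against 4.0 in the members. The means were 3.63, 3.57, 3.46 and 3.42 with place 2, 5, 6 or 3 unlisted. With place 1 unlisted, next to these steps, the mean was 2.61 ± 0.118, against 4.0 ± 0.0531 in the members (SD over 20 autosomes). The sets without place 1 include 599 spaced 23-20-4-8-4, whose first CpG lies 1 base from the empty place. Counted from their own first CpG, these 599 had 3.06 of the 6 steps. Counted from 1 base to either side of it, they had 0.715 or 0.768. How much they contribute to the low mean of 2.61 was not tested. The mean was below that of the members on 20 of 20 autosomes for places 1, 2, 3, 5 and 6, and on 19 of 20 for place 4.

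**Figure D4:**
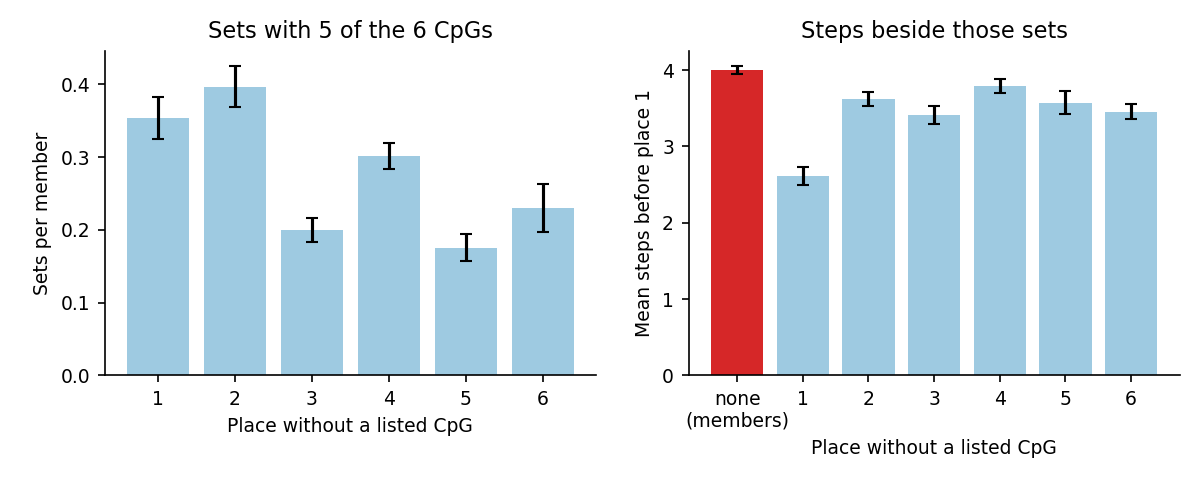
Left, number of autosomal sets with exactly 1 place unlisted, per member, by the place. Right, mean number of the 6 steps listed before place 1 in members (red) and in those sets (blue). Error bars are the SD over 20 autosomes, and the lowest bar on the right, 2.61, belongs to sets without place 1. Some of those sets have a CpG 1 base from place 1.

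Members were present on every autosome and were unevenly spread. There were 5.93 per Mb over all autosomes, with length taken between the outermost listed CpGs. Chromosome 19 had the highest rate with 865 members or 13.4 per Mb, followed by chromosome 16 with 855 or 10.9 per Mb. The lowest rates were on chromosome 8, with 600 members or 4.06 per Mb, and chromosome 5, with 803 or 4.41 per Mb. The range was 3.31-fold. The 4 autosomes named differ also in CpG density, with 14.6, 13.9, 8.67 and 7.52 listed CpGs per kb.

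Counted per listed CpG the range was smaller, but chromosome 19 still led. It had 0.921 members per 1000 listed CpGs and chromosome 16 had 0.782, while chromosome 8 had 0.468, against 0.622 over all autosomes, a 1.97-fold range. Chromosome 11, of average density at 9.86 CpGs per kb, came next to these with 0.724. Across the 20 autosomes, members per Mb and CpG density had Pearson's r = 0.96 and Spearman's rho = 0.90. For members per 1000 CpGs these were r = 0.81 and rho = 0.59. Without chromosomes 19 and 16, the farthest from the median density, r was 0.91 per Mb and 0.52 per 1000 CpGs. Without chromosome 10 as well, r was 0.81 per Mb and 0.29 per 1000 CpGs, so the relation per CpG rests on these 3 chromosomes. The points are chromosomes of one genome, and both measures share the count of CpGs or the span.

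The X chromosome held 695 further members, outside the autosomal set. It had 4.51 members per Mb against 5.93 on the autosomes, and 0.608 per 1000 listed CpGs against 0.622. Its members had on average 3.92 of the 6 steps before place 1 and 6.625 of the 9 later steps. On the autosomes these means were 4.0 and 6.34, and no autosome exceeded 6.53 of the 9.

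The filling of the steps varied far less between chromosomes than the number of members did. The mean number of steps before place 1 ranged from 3.87 on chromosome 19 to 4.08 on chromosome 15. Chromosome 19 thus had the most members per Mb and the lowest mean before place 1, but not after it. The mean number of the 9 later steps ranged from 6.19 to 6.53 over the autosomes and was 6.29 on chromosome 19. The share of complete sets among those with at least 5 places ranged from 35.7% on chromosome 7 to 40.9% on chromosome 12.

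**Figure D5:**
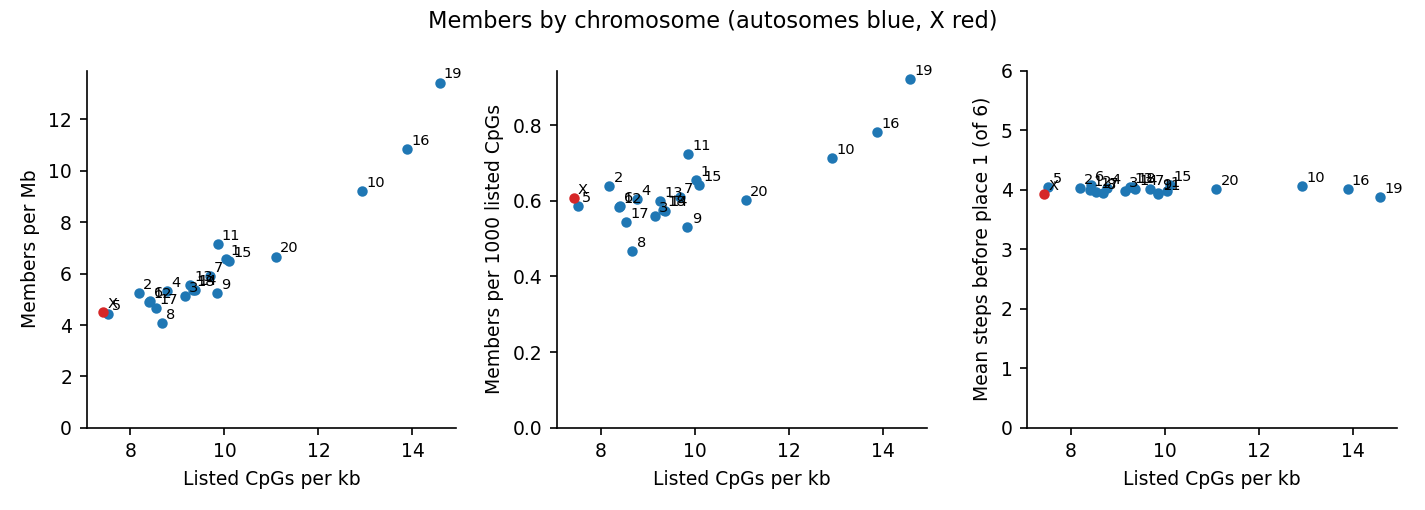
Members per Mb, members per 1000 listed CpGs and mean number of the 6 steps listed before place 1, each against listed CpGs per kb, with 1 point per chromosome. The first panel has a 3.31-fold range over the autosomes, while the means in the last lie between 3.87 and 4.08.

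The surroundings of the members had on average more CpGs per kb than the whole length of their chromosomes. That is a mean over bases, and listed CpGs are not spread evenly over them. Of all autosomal CpGs, 35.5% lay in 1 kb tiles with 10 to 19 of them, 23.3% with 20 to 39 and 9.04% with 40 or more. The flanks of listed CpGs in general were not counted, so whether those of the members are denser was not tested. Between 300 and 1000 bases from place 1 on either side, beyond the steps, there were 11.96 listed CpGs per kb, against 9.52 per kb over all autosomes. The median member had 10 per kb there, and the 3901 members with the densest flanks had 16.4 to 110 per kb, so the mean is drawn up by dense flanks. The mean of the flanks was above that of the chromosome on 20 of 20 autosomes, by 1.06-fold on chromosome 5 to 1.44-fold on chromosome 20. The mean of a chromosome includes stretches without a listed CpG. Chromosome 20 had 6.67 members per Mb but 8.24 per 1000 tiles of 1 kb that held a listed CpG. On chromosome 5 these were 4.41 and 4.57. How far such stretches set the ratios was not tested. The series itself ended sharply before place 1. In the 20 bases beyond 80 bases before place 1 there were 1.34 listed CpGs per kb, against 9.65 per kb in the 100 bases that follow.

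Dense flanks did not go with fuller steps. With members divided into 4 groups of similar size by the density of their flanks, the mean number of the 6 steps before place 1 was 4.01, 4.03, 3.94 and 4.01 from the sparsest to the densest flanks. These means differ by about the spread between autosomes or less, which was 0.0872 to 0.128 (SD over 20 autosomes within a group).

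The CpG density of the stretches that held the members depended on the length over which it was counted. In 1 kb tiles, 78.4% of the members lay where a tile held 20 to 39 listed CpGs, a class with 23.3% of all autosomal CpGs. Tiles with 40 or more held 5.62% of the members and 9.04% of all autosomal CpGs. A member with its steps brings up to 22 CpGs to its own tile, so these shares are partly set by the members themselves. In 500 base tiles with 20 or more, the same number per base, the direction turned, with 47.3% of the members and 13.6% of all autosomal CpGs.

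Neighbouring members were a median of 80.3 kb apart, with 27.9 kb at the lower quartile. Close neighbours mostly ran in the same direction. Of the 80 pairs within 500 bases, 72 did, or 90%. Of the 113 pairs between 500 and 1000 bases, 73 did, or 64.6%. Over all 16039 pairs it was 51.6%. No distance under 1000 bases, counted to the base, recurred in more than 3 pairs. A repeat length that varies by a few bases could not be seen in such a count. The shortest distance was 154 bases.

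Members were found in nearly all parts of the autosomes. Of 2686 windows of 1 Mb with a listed CpG, 81 or 3.02% had no member, and the median was 5. Of the 71 windows with 20 or more, 38 were on chromosomes 19, 16 and 10. The fullest windows had 31 members each. The first, chr19:2000001-3000000, has 25.97 listed CpGs per kb. The other, chr4:104000001-105000000, has 15.6 per kb and so more members per 1000 CpGs, 1.99 against 1.19. Chromosome 4 as a whole had 5.31 members per Mb.

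A second pattern, 6 CpGs spaced 4-5-38-2-4 bases or the reverse, was found 28427 times on the autosomes. Within 300 bases of it lay 35.5% of the 24-20-4-8-4 members, and 20.1% of the 4-5-38-2-4 sets had such a member as near. Of the 5750 pairs, 5640 or 98.1% lay in the same direction with 4-5-38-2-4 after place 6. The distance from place 1 to its first CpG was 142 bases in 2676 pairs. The 6 outermost steps, at 142, 146, 151, 189, 191 and 195 bases, have these spacings among themselves, so a member with all of them and no other CpG between them is such a pair. In 4541 of 4930 pairs with a first step, 92.1%, the distance moved with that step to the base. Only 5 pairs ran in opposite directions.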

How the data were processed

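Bisulfite sequencing was done on DNA from mononuclear blood cells of 6 animals, 3 of low and 3 of high rank, per the labels. Reads were handled with Bismark, which aligns bisulfite reads and calls methylation, per the submitters' processing notes. No source used here gives its version, the genome build or how sites were selected. The authors deposited a single headerless table for the whole series, which gives the chromosome, start and end of each listed CpG. The 12 further columns carry no names, were tied to no sample and were not used, so depth is not reported.

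Lines were split at spaces as well as tabs. The table lists 26958235 CpGs, with 0 out of order, and coordinates are given 1-based. Sets were matched on exact spacings with Python 3.11.15 and numpy 2.4.6, correlations used scipy 1.17.1, and pandas 2.3.3 drew up the figures' tables. The search, the step counts and the counts of incomplete sets were tested on simulated positions, and 13 of 13 planted values were recovered. A step is a distance with a listed CpG in at least 30% of the members. Counts are complete, so they have no sampling error, and the SD over autosomes is a spread between parts of one genome. No test was run and no p-value is given. Named were the 2 autosomes with the highest and the 2 with the lowest rate, the windows with the most members, and the distances with the highest shares. The pattern and all rules were chosen with earlier results of these data known. The tables of gene names provided use another assembly and were not used.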

Additional observations from a re-analysis of the deposited data

How the results depend on the processing

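No paired analysis was possible because no column of values could be tied to an animal. For the same reason the comparison of ranks was not run, and no sequence was described. The number of members was 16059 and would be 16758 with the X chromosome and unplaced sequence and 21426 with each spacing allowed to differ by 1 base. Sets with 1 inner CpG unlisted numbered 17229, and all other orders of the spacings 111. Chromosome 19 exceeded all autosomes 2.27-fold per Mb, 1.48-fold per 1000 listed CpGs and 2.73-fold per 1000 tiles with a listed CpG. The range across autosomes was 3.31-fold per Mb, 2.67-fold without chromosome 19, 1.97-fold per 1000 listed CpGs and 3.99-fold per 1000 tiles. The share of members in dense tiles was 5.62%, 47.3% in 500 base tiles with 20 or more CpGs, which a member with its steps can fill alone, and 1.14% in 5 kb tiles with 200 or more. CpGs beside the members numbered 16.9 per kb within 1000 bases and 28.4 within 300 bases, the stretch that holds the steps. The median distance to a neighbour was 80.3 kb, and 76.97 kb between neighbours of the same direction. Within 1000 bases, 37.6% of the members had a 4-5-38-2-4 set. The limits for a step, chosen after seeing the data, gave 16 steps at 20%, 30% and 50% and 21 at 10%. Except where a reason is given, the cause of these shifts was not tested.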

Other observations

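Some members whose first step lay 29 bases from place 6 had a different series of CpGs after it. Among the 2006 such members, 7 distances from place 1 that are no steps were listed in at least 10%. The most frequent was 178 bases, in 30.3%, against 8.17% at the same position, 1 base farther, in members with the first step at 30 bases, and 198 bases was listed in 11.3%, against 12.2%. The other 5, at 108, 129, 138, 166 and 182 bases, had at least 10 times the share of the members with the first step at 30 bases, and were listed in 17.0% to 18.8%. In the members with the first step at 30 bases these 5 positions were listed in 0.583% to 0.788%. The 5 occurred together: 389 members had at least 3 of them, of which 256 had all 5, while 41 had 1 or 2 and 1576 had none. The 389 had on average 0.242 of the 9 usual later steps, against 6.42 in the 1576 with none. Before place 1 they had 4.07 of the 6 steps, against 3.83, but the CpG at 39 bases was listed in 2.06% of them, against 49.8%. They lay on all 20 autosomes, 205 in the listed order and 184 read backwards. They were set apart by the values given here, so these are descriptions, with no test.

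One change of a single spacing was more frequent than the others. Sets spaced 24-20-3-8-4, with the third spacing 1 base shorter, numbered 2475 on the autosomes, 15.4% of the number of members. The other 9 changes of 1 spacing by 1 base gave 9 to 599 sets. The 2475 sets had 4.19 of the 6 steps before place 1 at their usual distance, against 4.0 in the members, with the CpG at 8 bases in 89.2%, against 78.1%. Their number was 25.3% of that of the members on chromosome 2, 22.3% on chromosome 17 and 10.5% on chromosome 12, with a median of 14.4% over the autosomes.

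The 599 sets spaced 23-20-4-8-4, the next most frequent change, differed from the members on the other side. The first step lay 29 bases from place 6 in 376 of them, 62.8%, the commonest distance there, while in the members the commonest was 30 bases. Before place 1 they had 3.06 of the 6 steps at the usual distance, against 4.0 in the members.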
